A study of Mus musculus with 42 samples.

Results

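Genes of sympathetic nerves and of Schwann cells were followed in the aorta and skeletal muscle of healthy and diabetic mice. The 6 genes are Th, Dbh, Npy, Chga, Mbp and S100b, taken as every probe that carries one of these symbols as its gene name. They are 6 of the 21186 genes on the array and have 8 of the 34891 probes with a gene symbol. RNA of aorta and of skeletal muscle from 3 adult male mice in each of 7 groups was hybridized to 42 single-colour Agilent arrays, 1 array per sample, so each set of group and tissue holds 3 arrays. The healthy group (G) were C57 mice. The diabetic group (A) were KK/Ay mice, obese mice that carry the yellow agouti allele and become diabetic without further treatment. The macroangiopathy group (C) were KK/Ay mice on a high-fat diet that drank L-NAME, which blocks nitric oxide synthase. The groups of SHENQI compound (B), its yangyinyiqi part (D), its huoxue part (E) and rosiglitazone (F) were mice of that macroangiopathy model given the named agent by gavage, and the healthy, diabetic and macroangiopathy groups received saline by the same route. Every KK/Ay group differs from the healthy group in strain as well as in diabetes, and these cannot be told apart here.

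Sympathetic nerves run in the outer coat of arteries and release noradrenaline onto the smooth muscle beneath and the fat around it. Tyrosine hydroxylase (Th) carries out the rate-limiting step of catecholamine synthesis, and dopamine beta-hydroxylase (Dbh) turns dopamine into noradrenaline inside the vesicles. Neuropeptide Y (Npy) is released together with noradrenaline and constricts arteries, and chromogranin A (Chga) is a protein of the dense-core vesicles of these neurons and of adrenal chromaffin cells. Schwann cells accompany nerve fibres: S100b, a calcium-binding protein, is one of their usual markers and is also made by adipocytes. Myelin basic protein (Mbp) compacts the sheath of those fibres that are myelinated, and has other transcripts that are made outside the nervous system.

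The probes of Th, Dbh, Npy and S100b lie in coding sequence and are shown here because each level below is the level of that stretch and of no other part of the transcript. The sequences and mm9 positions are those of the array design, and all bases are in lower case because no part is singled out.
Th, chr7:150079917-150079976, minus strand: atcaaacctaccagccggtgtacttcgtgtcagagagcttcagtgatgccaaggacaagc
Dbh, chr2:27037081-27037140, plus strand: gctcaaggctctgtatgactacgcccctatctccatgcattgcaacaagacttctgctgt
Npy, chr6:49773743-49777505, plus strand: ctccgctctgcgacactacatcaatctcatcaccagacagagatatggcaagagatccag
S100b, chr10:75722709-75722768, plus strand: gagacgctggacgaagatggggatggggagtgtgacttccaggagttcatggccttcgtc
The Npy probe spans an exon junction, so its ends lie further apart in the genome than its own length. Chga has 1 probe at chr12:103803083-103803142. Mbp has 3 probes, described with its values. The probe of Th and 1 of the Mbp probes are printed on 10 spots of each array, and every other probe on 1 spot.

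Levels are log2 normalized intensities, and levels of different probes are not compared with each other. Between 62.9% and 77.6% of the named probes were well above background, the scanner software's test of a spot, on the aorta arrays and between 53.8% and 70% on the muscle arrays. The lowest shares were those of slide 11, which holds the 3 huoxue muscle arrays and 1 rosiglitazone muscle array. The nonagouti gene a, which the yellow allele switches on everywhere, was higher in diabetic than in healthy mice, at least 11-fold in aorta and at least 14.3-fold in muscle. Of the 5 smooth muscle genes 4 were higher in aorta, and all 5 skeletal muscle genes were lower there. Healthy aorta 1 stood apart, with a mean level of 9.66 over the smooth muscle genes against 12.4 to 14.6 in the other 20 aortas and the highest mean of the lymphocyte genes, 10.3 against 6.53 to 9.94. Diabetic aorta 2 had the highest mean of the skeletal muscle genes, 15.9 against 7.67 to 14.5 in the other aortas. Slide 4 alone holds arrays of both tissues, so tissue and slide are otherwise confounded.

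The aorta carried far more of the sympathetic nerve transcripts than skeletal muscle did. Th, Dbh, Npy and Chga were higher in aorta than in muscle by 3.30 to 6.18 on the log2 scale, and S100b by 4.09. Mbp differed by only 0.36, with its 3 probes pointing in different directions. In each of Th, Npy and S100b the lowest aorta array lay above the highest muscle array, except that S100b in healthy aorta 1 lay within the range of muscle.

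Th, which makes the catecholamine precursor DOPA, was well above background on all 21 aorta arrays and on 1 of the 21 muscle arrays. Its level in aorta was 11.25, 10.36 and 11.97 in the healthy mice, 9.85, 11.21 and 12.50 in the diabetic mice and 10.69, 12.92 and 11.25 in the macroangiopathy mice. Under treatment it was 13.23, 10.12 and 6.17 with SHENQI, 11.17, 11.44 and 7.28 with yangyinyiqi, 7.92, 10.06 and 12.54 with huoxue and 11.27, 12.36 and 10.34 with rosiglitazone. The groups overlapped throughout, and 1 mouse each of the SHENQI, yangyinyiqi and huoxue groups was far below the rest. All muscle arrays lay between 5.18 and 5.95. The difference between aorta and muscle was 5.11 ± 0.42 (SE, 21 arrays per tissue, limma adjusted p = 1.65e-12). Since Th in muscle was mostly not well above background, the ratio within a group is a lower bound, the aorta mean against the dimmest signal that could be told from background in muscle. On that basis Th was at least 47.8-fold higher in healthy aorta than in healthy muscle, at least 54.9-fold in the macroangiopathy group and at least 17.1-fold in the huoxue group.

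Dbh, the enzyme of the noradrenaline step, ordered the aortas much as Th did. Its level in aorta was 9.27, 10.25 and 11.78 in healthy, 9.54, 10.99 and 11.91 in diabetic and 10.10, 11.92 and 10.91 in macroangiopathy mice. With SHENQI it was 12.13, 9.52 and 6.44, with yangyinyiqi 11.33, 10.92 and 7.15, with huoxue 7.59, 9.64 and 11.37 and with rosiglitazone 10.20, 11.26 and 9.35. The same 3 mice were lowest as for Th, and SHENQI aorta 3 lay within the muscle range of 6.09 to 6.80. Dbh was 3.61 ± 0.37 higher in aorta than in muscle (adjusted p = 2.62e-10), and was well above background on 20 of the 21 muscle arrays.

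Npy, the peptide transmitter, had the largest tissue difference of the 6 genes, 6.18 ± 0.43 (adjusted p = 2.45e-14). Its level in aorta was 12.60, 11.02 and 13.28 in healthy, 10.80, 13.14 and 14.03 in diabetic and 12.34, 14.57 and 12.74 in macroangiopathy mice. With SHENQI it was 14.35, 11.79 and 7.48, with yangyinyiqi 12.93, 12.70 and 8.72, with huoxue 9.68, 12.22 and 13.87 and with rosiglitazone 12.18, 14.05 and 12.02. Even the lowest aorta, SHENQI aorta 3, exceeded every muscle array, which ranged from 5.67 to 6.45, with 7 of 21 well above background. In the SHENQI group Npy was at least 36.1-fold higher in aorta than in muscle and in the huoxue group at least 47.7-fold, and in these groups no muscle array was well above background.

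Chga, the vesicle protein, was 3.30 ± 0.30 higher in aorta (adjusted p = 1.41e-11). Its level in aorta was 9.91, 10.13 and 10.50 in healthy, 8.30, 9.77 and 11.004 in diabetic and 10.10, 11.39 and 10.65 in macroangiopathy mice. With SHENQI it was 11.06, 9.88 and 6.53, with yangyinyiqi 8.97, 10.24 and 9.91, with huoxue 7.59, 9.56 and 11.03 and with rosiglitazone 9.12, 11.68 and 9.29. SHENQI aorta 3 was again the lowest and lay inside the muscle range of 5.92 to 7.58, whereas yangyinyiqi aorta 3, low for the other nerve genes, was close to its group here.

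All 6 genes passed the test as higher in aorta, where 40.4% of the 16176 genes tested did so, and the median difference over all of them was 0.0286. In each group by itself Th, Dbh, Npy, Chga and S100b were called, and Mbp in none. Slide 4 compared the tissues on a single slide: healthy muscle 3 had Th at 5.18, and diabetic aortas 2 and 3 on the same slide 11.21 and 12.50. In bulk tissue less nerve tissue in a sample, fibres or cell bodies, and less RNA per cell cannot be told apart. This holds here and in every comparison that follows. Whether the samples held nerve cell bodies was not tested.

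**Figure D1:**
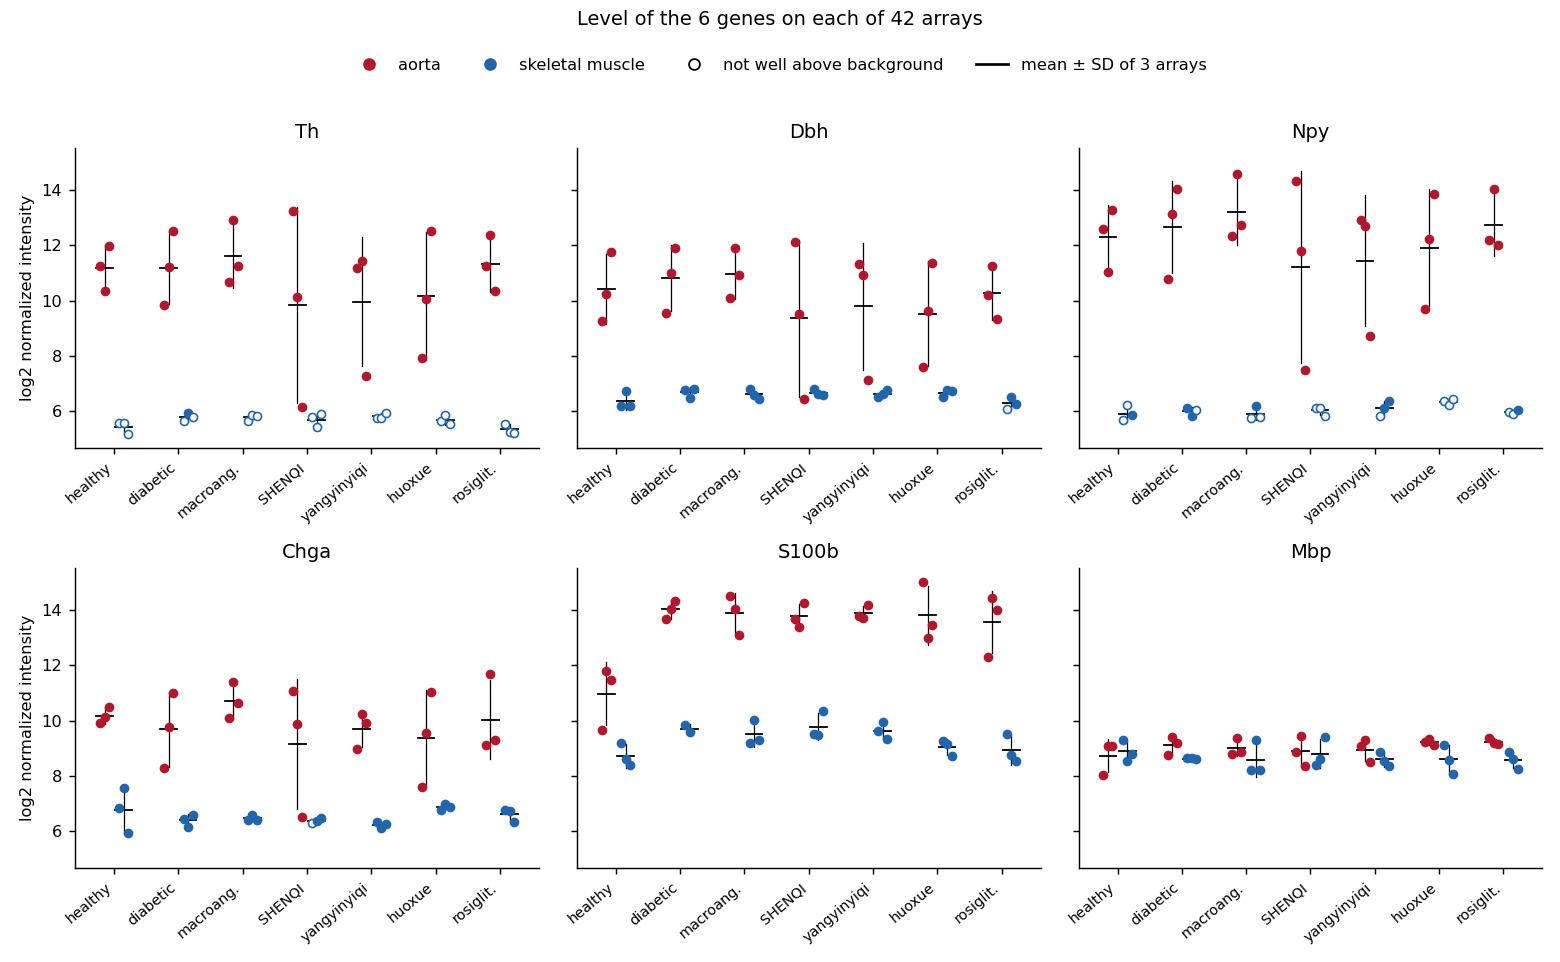
Log2 normalized intensity of each of the 6 genes on every array, by group, with aorta and skeletal muscle in separate colours, 1 point per mouse, hollow where not well above background, and the mean ± SD of each set as lines. Th, Dbh, Npy and Chga are far above muscle in most aortas and spread widely within groups, while S100b in the 18 KK/Ay aortas lies above all 3 healthy aortas.

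The rest of the sympathetic programme went with them. All 12 other genes of a sympathetic neuron list were higher in aorta, with a median difference of 2.06. Among them were the noradrenaline transporter Slc6a2 at 4.42 and the vesicular monoamine transporter Slc18a2 at 3.13. All 14 genes of an axon and neuron list were higher as well, with a median of 2.48. The neurofilament Nefl differed by 4.47, the ubiquitin hydrolase Uchl1 by 3.64 and the neuronal tubulin Tubb3 by 3.20. The 4 genes that clear catecholamines were all higher in aorta, with monoamine oxidase Maoa at 2.21 and the transporter Slc22a3 at 1.69.

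The receiving side of the nerve was mixed. Of 12 adrenergic and neuropeptide Y receptor genes 10 could be tested, and 6 were higher in aorta, 1 lower and 3 not called. The beta-1 receptor Adrb1 was higher by 2.06 and the alpha-2A receptor Adra2a by 1.27. Of 11 neurotrophic factors and receptors 9 were tested, with 4 higher and 3 lower: the growth factor Ntf3 was higher by 1.47 and Gfra3, the artemin receptor, by 1.21, and Gfra1, the GDNF receptor, was lower (-0.58). Of 3 genes of motor and other cholinergic nerves 2 were tested, and the choline transporter Slc5a7 was lower in aorta (-0.77).

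Genes of other cells that could hold these transcripts were measured as well. Adrenal chromaffin cells also make Th, Dbh, Npy and Chga. Of the 5 adrenal genes on the array 4 were tested, 2 higher and 2 lower in aorta. Pnmt, the adrenaline-making enzyme of chromaffin cells, was lower in aorta (-0.88), and the steroid genes Star and Cyp21a1 differed by 0.30 and 0.20. Cyp11a1 was well above background on 2 of 21 aorta arrays. The mean over the adrenal genes stayed between 6.07 and 6.62 in the KK/Ay aortas while that over the sympathetic list ran from 6.2 to 9.79. Of 5 central glia genes 2 were tested and both were lower in aorta, Aqp4 by -2.57 and Mobp by -0.41. Both were well above background on all 21 muscle arrays, and in aorta Aqp4 was on 5 arrays and Mobp on 18. These 2 differences thus rest on signal in muscle. Mog was well above background on 1 aorta array. Fat genes were also high in the aorta samples, with 7 of 8 adipocyte genes higher there and the brown fat gene Ucp1 at 9.78, Plin1 at 3.88 and Cfd at 3.48. Lymphocyte genes were higher in 4 of 5 cases, among them Cd79b by 3.39 and Cd3g by 0.79. Of 4 chondrocyte genes Acan was higher by 0.86 and Comp (-1.78) and Sox9 (-0.76) were lower. The part of these cells in the tissue differences was not tested.

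**Figure D2:**
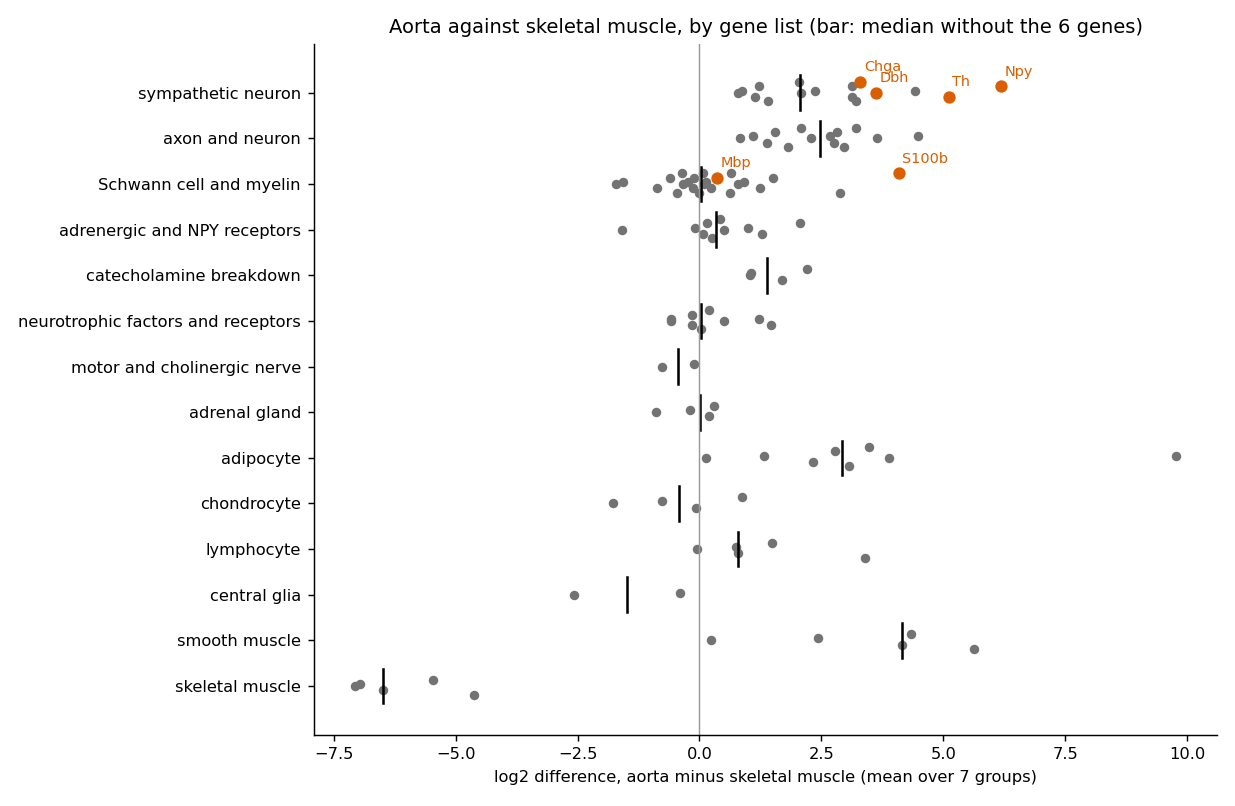
Aorta minus skeletal muscle difference in log2 normalized intensity for each gene of the lists, 1 point per gene, with the median of each list as a bar that leaves out the 6 genes. The sympathetic and axon lists lie wholly above 0, whereas the Schwann cell list is spread on both sides of it.

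Within the aorta the nerve genes differed more between mice of a group than nearly all other genes. The standard deviation within groups was 2.03 for Npy, 2.00 for Th, 1.76 for Dbh and 1.38 for Chga, ranks 66, 68, 116 and 271 among 15625 genes whose median was 0.293. S100b had 0.809 and Mbp 0.389, ranks 1044 and 5063. Th ranged over 7.06 on the log2 scale between the lowest and highest aorta, which is 133-fold.

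These differences between mice were shared by the 4 nerve genes. Deviations from the group mean were compared over the 21 aortas with permutations within groups, in 30 pairs over both tissues with Benjamini-Hochberg adjustment. Th and Npy had Pearson's r = 0.984 and Spearman's rho = 0.969 (permutation test, adjusted p = 3e-04, 2e-04 for rho), and r = 0.974 without the 2 arrays farthest from the median. Th and Dbh had r = 0.966 and rho = 0.93 (permutation test, adjusted p = 3e-04 and 2e-04), with r = 0.947 without 2 arrays. Dbh and Npy had r = 0.952 and rho = 0.952 (adjusted permutation p = 5e-04 and 2e-04), with r = 0.923 without 2 arrays. A mouse with little Th signal in its aorta also had little Dbh and Npy signal.

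Chga had lower correlations. Its r with Th was 0.812 (rho 0.77), with Npy 0.813 (rho 0.755) and with Dbh 0.765 (rho 0.73), with adjusted permutation p of 0.00895, 0.00895 and 0.00994, and 0.011 for each rho. Without the 2 farthest arrays these were 0.683, 0.847 and 0.806. S100b did not follow: its r with Th was -0.264 (rho -0.253, adjusted permutation p = 0.369 and 0.426). Mbp had r = 0.44 with Th (rho 0.435, adjusted permutation p = 0.326 and 0.225). In muscle, where Th and Npy are near background, none of the 6 pairs among the 4 nerve genes passed, and Mbp with S100b did (r = 0.843, rho = 0.786, 0.771 without 2 arrays, adjusted permutation p = 0.00765 and 0.011, 20 arrays). Without the arrays of slides 1, 3 and 11 the 3 pairs among Th, Dbh and Npy passed and the other 4 of these 7 pairs did not.

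**Figure D3:**
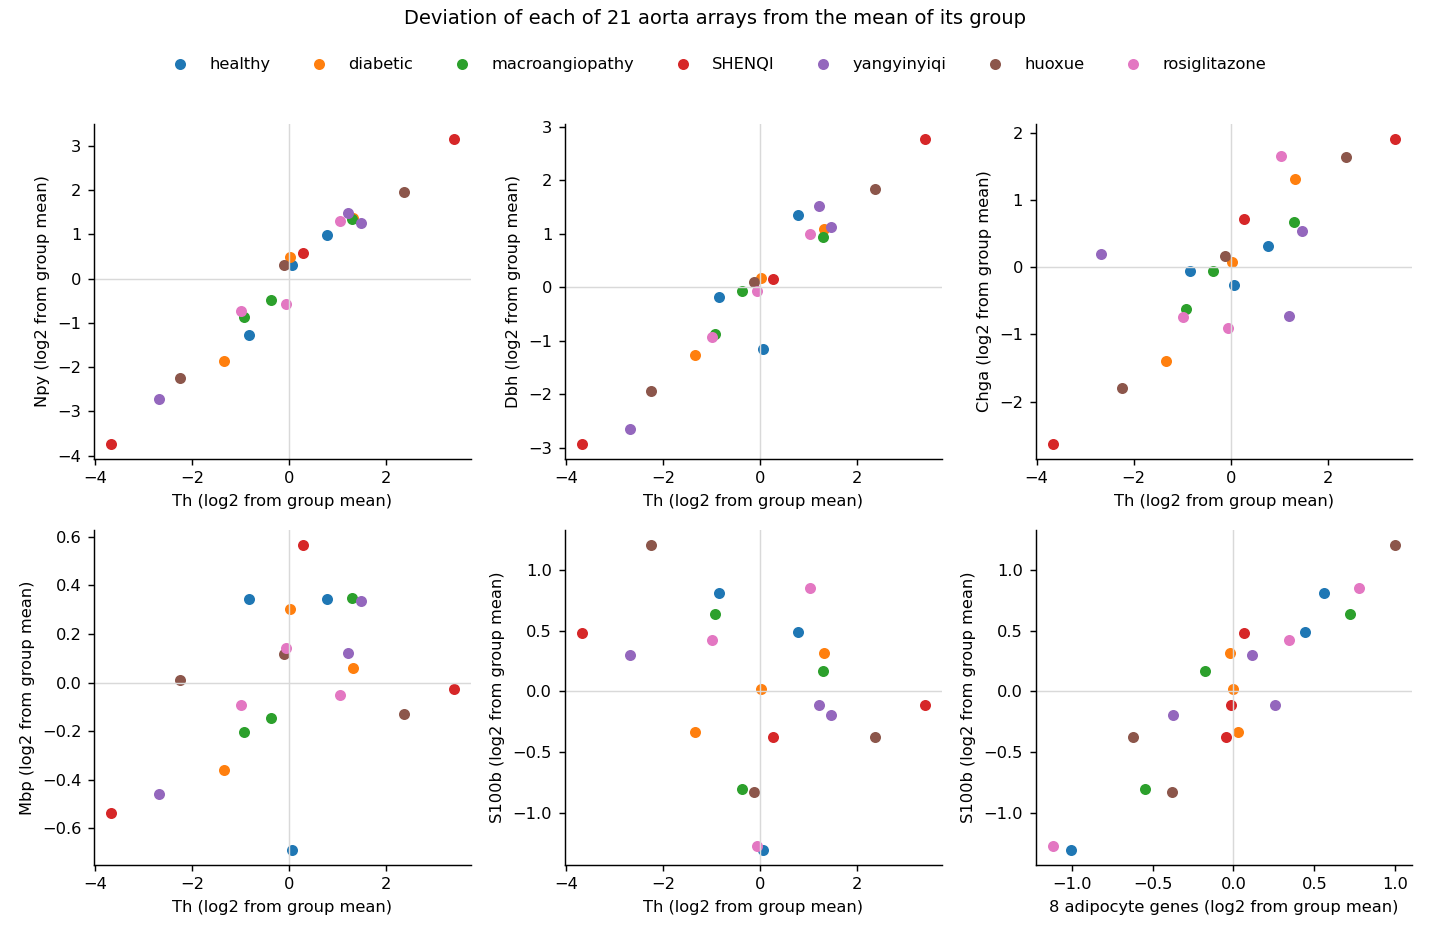
Deviation from the group mean in log2 normalized intensity for pairs of genes over the 21 aorta arrays, 1 point per mouse, coloured by group. Dbh and Npy lie along a line with Th (r = 0.966 and 0.984), S100b does not (r = -0.264), and S100b lies along a line with the mean of the 8 adipocyte genes (r = 0.925).

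The means of the gene lists gave the same picture in 84 relations of a gene with a list mean, computed after the values had been seen. Th, Dbh and Npy had r of 0.963, 0.955 and 0.966 with the sympathetic list (rho 0.96, 0.949 and 0.96) and 0.971, 0.974 and 0.966 with the axon list (rho 0.961, 0.952 and 0.969), with an adjusted permutation p of 0.00028 for each r and rho. Without the 2 farthest arrays these r stayed between 0.935 and 0.968. The Schwann list went with Dbh at r = 0.842 (rho 0.874, 0.802 without 2 arrays, adjusted permutation p = 0.00108 and 0.00096) and with Th at r = 0.755 (rho 0.773, 0.687 without 2 arrays, adjusted permutation p = 0.00655 and 0.0077). Among its genes the p75 receptor Ngfr had r = 0.965 with Th and the transcription factor Sox10 0.732. Nerve fibres carry p75 too.

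The genes with a level most like that of each nerve gene over the 21 aortas were found by Pearson's r. For Th these were Bex2 (r = 0.9815), Sult4a1 (0.9813) and Npy (0.9809), and for Npy they were Bex2 (0.9831), Th and Ddc (0.9803), the DOPA decarboxylase. For Dbh they included the neuronal filament Prph (0.9843) and Sult4a1 (0.9662), and for Chga they were its relative Chgb (0.932), Nrsn1 (0.8893) and Cyp4x1 (0.8874). These r describe 15625 genes well above background on at least 11 aortas and carry no test.

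Because these 4 genes moved together, the 250 bases before their starts are shown, from RefSeq on GRCm38.p6, in the direction of transcription. Capitals mark matches to the cyclic AMP response element TGACGTNA, the AP-1 site TGANTCA, the GC box GGGCGG and the TATA box TATAAA, each searched on both strands.
Th, chr7:142899996-142900245, minus strand: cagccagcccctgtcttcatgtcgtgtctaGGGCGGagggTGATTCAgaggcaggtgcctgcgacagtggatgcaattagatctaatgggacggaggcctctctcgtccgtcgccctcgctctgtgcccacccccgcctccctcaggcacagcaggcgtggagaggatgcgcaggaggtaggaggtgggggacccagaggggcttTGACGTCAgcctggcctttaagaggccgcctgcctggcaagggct
Dbh, chr2:27165257-27165506, plus strand: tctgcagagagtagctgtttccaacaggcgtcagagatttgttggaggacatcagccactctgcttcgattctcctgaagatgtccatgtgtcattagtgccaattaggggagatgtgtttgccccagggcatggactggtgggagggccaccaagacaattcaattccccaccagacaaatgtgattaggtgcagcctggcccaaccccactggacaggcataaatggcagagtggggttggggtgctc
Npy, chr6:49822460-49822709, plus strand: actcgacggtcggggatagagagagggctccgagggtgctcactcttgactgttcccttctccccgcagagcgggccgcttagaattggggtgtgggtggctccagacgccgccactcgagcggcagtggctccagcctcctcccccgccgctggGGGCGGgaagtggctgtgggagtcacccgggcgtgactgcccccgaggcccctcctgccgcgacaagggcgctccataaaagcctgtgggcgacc
Chga, chr12:102554691-102554940, plus strand: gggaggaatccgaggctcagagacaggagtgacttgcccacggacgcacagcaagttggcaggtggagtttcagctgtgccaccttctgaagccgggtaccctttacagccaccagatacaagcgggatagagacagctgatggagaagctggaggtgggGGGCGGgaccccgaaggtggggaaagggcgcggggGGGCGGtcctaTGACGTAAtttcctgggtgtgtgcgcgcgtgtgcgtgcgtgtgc
The cyclic AMP element stood 45 to 38 bases before the start in Th and 44 to 37 in Chga, and 2.52% of all 32851 promoters of this length hold it. Th also had an AP-1 match 210 to 204 bases before the start (6.75% of all promoters). A GC box, in 32.7% of promoters, was in Th, in Npy 95 to 90 bases before the start and at 2 places in Chga. The TATA box letters, in 12.4% of promoters, were in none, and Dbh had no match to any of the 4. No pair of matches overlapped, except that the Th cyclic AMP element reads the same on either strand. The matches describe letters only.

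The nerve genes did not separate the groups. The comparisons tested diabetes together with strain (A vs G), the added diet and L-NAME (C vs A) and all of these (C vs G). The 4 treatments were each tested against untreated mice of the model. The fits used 12 arrays and allowed for tissue, but counted aorta and muscle arrays that may share a mouse as independent. Of the 42 pairs of gene and comparison 2 passed after adjustment, both S100b. At an unadjusted p below 0.05, the threshold of the study's methods, 3 passed. Over all genes tested after adjustment, 4.50% passed for A vs G, 5.17% for C vs G, 0.00631% for rosiglitazone and 0% for C vs A and for the other treatments. Unadjusted, 22.1% passed for A vs G, 24.3% for C vs G and 5.12% for C vs A. For SHENQI 2.71% passed unadjusted, for yangyinyiqi 3.41%, for huoxue 14.3% and for rosiglitazone 12%.

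Th differed between diabetic and healthy mice by 0.17 ± 0.39 over both tissues (95% interval -0.67 to 1.01, limma adjusted p = 0.819), and between macroangiopathy and healthy mice by 0.38 ± 0.35 (-0.39 to 1.15, adjusted p = 0.528). Npy differed by 0.22 ± 0.50 (-0.86 to 1.30) and 0.46 ± 0.43 (-0.49 to 1.41) in the same comparisons. Dbh differed by 0.35 ± 0.43 (-0.58 to 1.29) and 0.40 ± 0.39 (-0.46 to 1.25), and Chga by -0.44 ± 0.39 (-1.30 to 0.42) and 0.12 ± 0.30 (-0.53 to 0.77). For Th and Npy these values average the aorta with muscle, where both genes were mostly not well above background, so the aorta was also fitted alone. There Th differed by -0.0073 ± 0.72 in A vs G and 0.42 ± 0.67 in C vs G, and Npy by 0.36 ± 0.93 and 0.91 ± 0.78, none of which passed (limma adjusted p from 0.562 to 0.997). In C vs A the 6 genes lay between -0.16 for S100b and 0.55 for Chga, and 0 passed with limma, unadjusted or adjusted.

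The treatments were all compared with the same macroangiopathy mice, so their values are not independent of each other. In aorta alone Th against that group was -1.78 ± 1.71 (SE, 3 arrays per group) with SHENQI, -1.65 ± 1.20 with yangyinyiqi, -1.44 ± 1.22 with huoxue and -0.29 ± 0.73 with rosiglitazone. Npy was -2.01 ± 1.69, -1.76 ± 1.22, -1.29 ± 1.14 and -0.46 ± 0.78 in the same order. Each of the first 3 means carries 1 mouse with a very low value, and the other mice of these groups lay within the range of the macroangiopathy group or close to it. Dbh was -1.62, -1.18, -1.45 and -0.71, and Chga -1.55, -1.01, -1.32 and -0.68. In these fits of aorta alone 0 of the 42 pairs passed after adjustment, against 0.213% of all genes for A vs G, 0.259% for C vs G and 0% for the other 5 comparisons.

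Over both tissues 0 of the 24 pairs of gene and treatment passed with limma after adjustment and 1 did unadjusted, Chga with yangyinyiqi (-0.62 ± 0.25, limma adjusted p = 0.999). In muscle alone Chga was higher with huoxue than in the macroangiopathy group, by 0.40 ± 0.09 (limma adjusted p = 0.0154), but 32.2% of all genes passed there. All 3 huoxue muscle arrays were on slide 11, which has no macroangiopathy array, so group and slide cannot be told apart in that comparison.

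**Figure D4:**
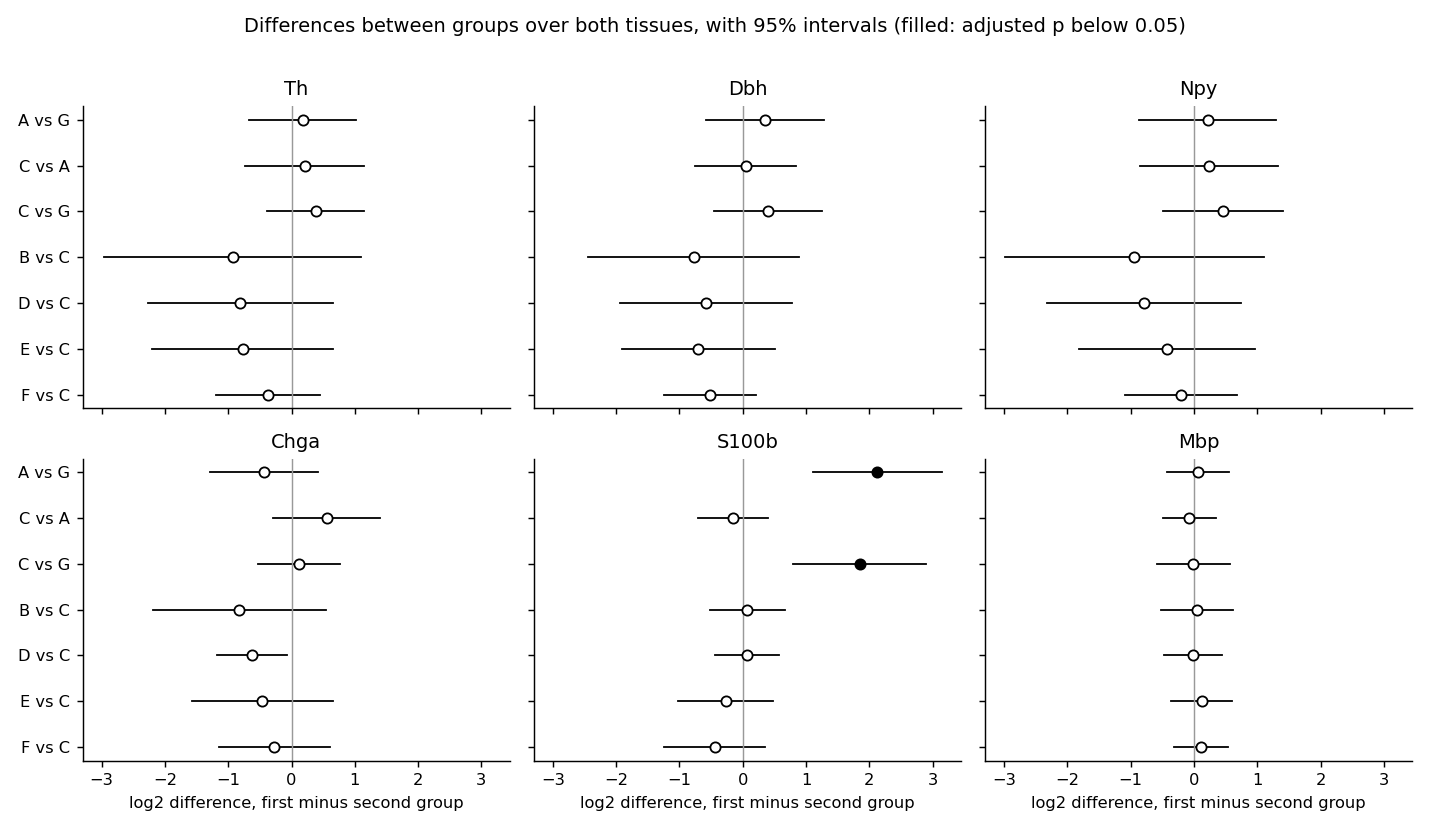
Difference between groups in log2 normalized intensity for each of the 6 genes in the 7 comparisons, over both tissues, with 95% intervals from limma. The intervals of S100b in A vs G and C vs G lie above 0 and are those that pass after adjustment, and the widest intervals are those of Th, Npy and Dbh with SHENQI.

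S100b was the exception. Its level in aorta was 9.68, 11.79 and 11.46 in the healthy mice, 13.69, 14.04 and 14.34 in the diabetic mice and 14.53, 14.06 and 13.09 in the macroangiopathy mice. It was 13.66, 13.40 and 14.25 with SHENQI, 13.78, 13.70 and 14.19 with yangyinyiqi, 15.02, 12.99 and 13.45 with huoxue and 12.31, 14.42 and 13.99 with rosiglitazone. All 18 KK/Ay aortas lay above all 3 healthy aortas, and the treated groups overlapped with the untreated model.

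In muscle S100b was lower and the groups lay closer together. It was 9.21, 8.61 and 8.38 in healthy mice, 9.20, 10.04 and 9.30 in macroangiopathy mice and 9.83 and 9.57 in diabetic mice 1 and 3, where the spot of diabetic muscle 2 was irregular and left out. With SHENQI it was 9.53, 9.47 and 10.34, with yangyinyiqi 9.63, 9.94 and 9.34, with huoxue 9.26, 9.15 and 8.71 and with rosiglitazone 9.53, 8.76 and 8.53. The diabetic muscles lay above the healthy ones, and the macroangiopathy muscles overlapped with them by a single array.

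Over both tissues S100b was 2.12 ± 0.46 higher in diabetic than in healthy mice (4.36-fold, limma adjusted p = 0.0288) and 1.85 ± 0.48 higher in macroangiopathy than in healthy mice (3.60-fold, adjusted p = 0.0482). The mean ratio in A vs G was 8.28-fold in aorta and 1.96-fold in muscle. Fitted alone, aorta gave 3.05 ± 0.56 (adjusted p = 0.118) and muscle 0.97 ± 0.27 (adjusted p = 0.116), and for C vs G they gave 2.91 ± 0.64 (adjusted p = 0.137) and 0.78 ± 0.30 (adjusted p = 0.191). The call in A vs G was lost without healthy aorta 3, healthy muscle 3, diabetic aorta 2, diabetic aorta 3 or diabetic muscle 1, each left out by itself, with adjusted p from 0.0523 to 0.0774. That in C vs G was lost without any of 9 of its 12 arrays and under most other settings, with the direction kept in all of them. Without healthy aorta 1, the array with few smooth muscle transcripts and the lowest S100b, the differences were 1.69 (adjusted p = 0.0102) and 1.44 (adjusted p = 0.0371).

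In aorta, slides 1 and 2 hold both healthy and KK/Ay mice, and on both of them S100b was higher in the KK/Ay mice. On slide 1 S100b was 9.68 and 11.46 in healthy aortas 1 and 3, 13.69 in diabetic aorta 1 and 13.66 in SHENQI aorta 1. On slide 2 it was 11.79 in healthy aorta 2 and 13.40 and 14.25 in SHENQI aortas 2 and 3. In muscle, slide 3 holds both, and there S100b was not higher, at 9.21 and 8.61 in healthy muscles 1 and 2 against 8.76 and 8.53 in rosiglitazone muscles 2 and 3. Whether the difference is larger in aorta than in muscle was tested as an interaction: it was 2.08 ± 0.72 in A vs G (limma adjusted p = 0.564) and 2.13 ± 0.76 in C vs G (adjusted p = 0.307). Of the 42 interactions 0 passed after adjustment, where 0.0743% of genes did for A vs G, 0.108% for C vs G, 3.05% for huoxue, 1.51% for rosiglitazone and 0% for the other 3 comparisons, and these 2 passed unadjusted in limma.

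S100b in aorta went with fat genes, while its relation with the Schwann cell list did not pass. Over the 21 aortas its deviations had r = 0.925 with the mean of the adipocyte list (rho 0.901, 0.877 without 2 arrays, adjusted permutation p = 0.00819 and 0.00596), and r of 0.951 with the fatty acid carrier Fabp4 and 0.945 with Ucp1. With the Schwann list r was 0.169 (rho 0.0974, adjusted permutation p = 0.852 for r). With the receptor list r was 0.713 (rho 0.642, 0.566 without 2 arrays, adjusted permutation p = 0.0398 and 0.094), with the fat-rich beta receptors Adrb1 at 0.864 and Adrb3 at 0.799. With the lymphocyte list r was -0.683 (rho -0.558, -0.599 without 2 arrays, adjusted permutation p = 0.0342 and 0.149). The genes most like S100b in level were Hddc3 (r = 0.955), Sfxn4 (0.9279) and Pcolce (0.9199), with no test.

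The level of the adipocyte list did not separate healthy from KK/Ay aortas, with means of 12.9 to 14.5 in the 3 healthy and 12.1 to 14.5 in the 18 KK/Ay aortas. Over both tissues 3 of its 8 genes were called, and in aorta alone 1 was in A vs G and 0 in C vs G. The differences that follow are those over both tissues. The satiety hormone Lep was higher by 2.29 in A vs G and 2.01 in C vs G (limma adjusted p = 6.05e-04 and 0.00883), although it was well above background on only 1 of 3 healthy arrays in each tissue. The adipokine Retn was lower (-3.17 and -3.72, adjusted p = 5.33e-04 and 5.73e-04), as was Cfd, or adipsin (-2.38 and -2.70, adjusted p = 0.0365 and 0.0267). In A vs G the mean of Cfd was 1.94-fold lower in aorta and 14-fold lower in muscle. The Schwann list mean was 6.71 to 7.51 in healthy and 6.87 to 7.8 in KK/Ay aortas, the smooth muscle mean 9.66 to 13.5 and 12.4 to 14.6, and the lymphocyte mean 6.53 to 10.3 and 6.59 to 9.94. The part of these cells in the S100b difference was not tested.

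Mbp was read at 3 places of its transcripts that did not all go together. Averaged over its 3 probes it ranged from 8.04 to 9.46 in aorta and from 8.08 to 9.40 in muscle, and the aorta difference was 0.36 ± 0.12 (adjusted p = 0.009). Fitted one by one, where 77.0% of all probes were called, probe A_52_P604195 (chr18:82727929-82727988) was higher in aorta by 2.03 ± 0.15 (adjusted p = 8.05e-14). Probe A_52_P329451 (chr18:82742266-82744570) was lower (-0.65 ± 0.12, adjusted p = 1.23e-05), and A_51_P349205 (chr18:82754755-82754814) did not pass (-0.31 ± 0.20, adjusted p = 0.17). All 3 probes were well above background on all 42 arrays.

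The first of these probes ranged from 9.68 to 11.58 in aorta and from 7.92 to 9.33 in muscle, with no overlap. It was 10.90, 10.74 and 10.24 in the healthy aortas, 10.34, 9.95 and 10.04 in the diabetic aortas and 10.18, 9.88 and 10.05 in the macroangiopathy aortas. Over both tissues it was -0.60 ± 0.20 in A vs G (limma adjusted p = 0.103) and -0.69 ± 0.20 in C vs G (adjusted p = 0.0658), where 4.67% and 6.02% of all probes passed. Neither this probe nor the other Mbp probes passed in either comparison.

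The probes also differed in what they went with. Probes A_51_P349205 and A_52_P329451 had r of 0.621 and 0.617 with Dbh over the aortas (rho 0.658 and 0.648, 0.541 and 0.556 without 2 arrays, adjusted permutation p = 0.033 for each r and 0.05 for each rho, 15 relations computed after the values had been seen). Probe A_52_P604195 had r of -0.0618 with Th, -0.0966 with Dbh and -0.0579 with Npy (rho -0.0727, -0.203 and -0.194, adjusted permutation p of 0.863 for each r). The genes most like averaged Mbp in level over the aortas were A330049M08Rik (r = 0.8815), the axonal potassium channel Kcna1 (0.8104) and the kinase Aatk (0.8086), given with no test.

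**Figure D5:**
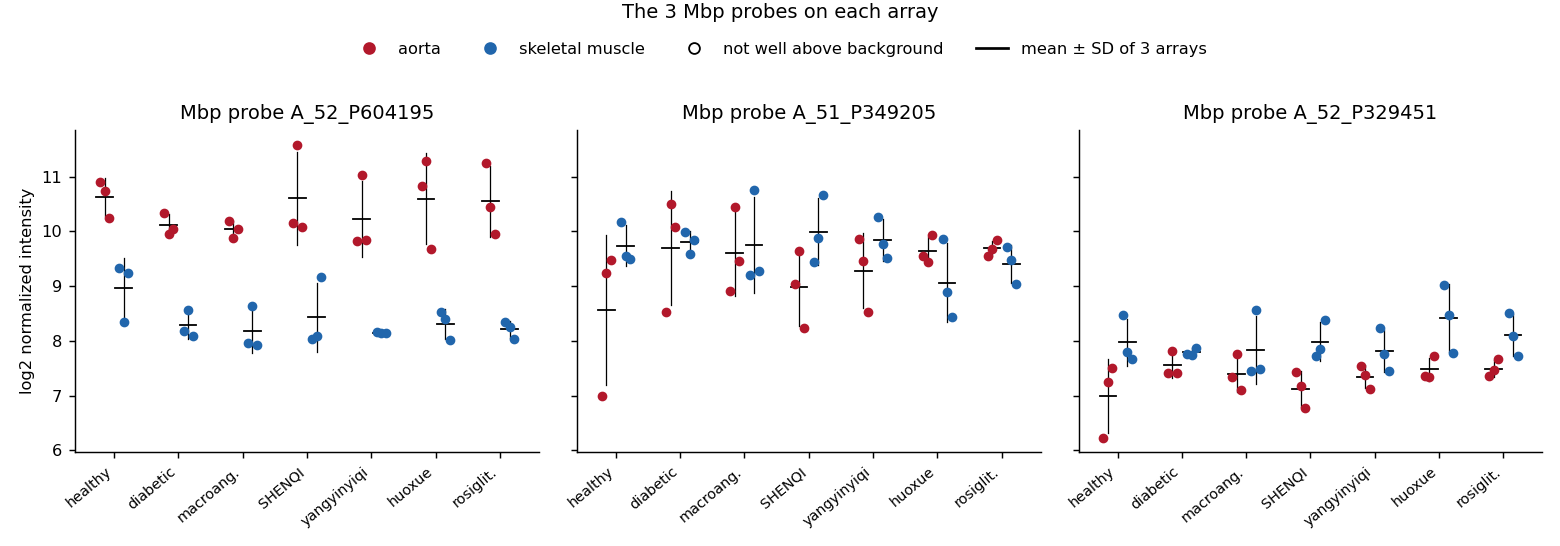
Log2 normalized intensity of the 3 Mbp probes on every array, by group, with aorta and skeletal muscle in separate colours and the mean ± SD of each set as lines. Probe A_52_P604195 lies higher in every aorta than in any muscle, and the other probes overlap between the tissues or lie lower in aorta.

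The wider Schwann cell list was as divided as Mbp. Of its 22 other genes 7 were higher in aorta, 9 lower and 6 not called, and the median difference was 0.0351, close to that of all genes. Ngfr was higher by 2.89, and Fa2h, a hydroxylase of myelin lipids, and Pou3f1, a transcription factor of promyelinating Schwann cells, were lower (-1.72 and -1.57). Both tissues expressed Sox10, the defining transcription factor of the lineage, above background on all 21 arrays. In the sympathetic and axon lists 12 of 12 and 14 of 14 genes were higher in aorta. No gene of the sympathetic, axon, Schwann, receptor, breakdown or neurotrophic lists was called in A vs G or C vs G after adjustment with limma. At an unadjusted p below 0.05 the sympathetic list had 0 and 1 of its 12 genes, the axon list 1 of 13 and 3 of 14, and the Schwann list 2 of 20 and 4 of 21.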

How the data were processed

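The authors read aorta and skeletal muscle RNA of 3 mice per group, 7 groups in all, on 42 single-colour arrays and 11 slides, with Agilent Feature Extraction 10.7. The deposited scanner files hold the intensity of each spot and of its local background before correction, in 8 files with all columns and in 34 with fewer. A deposited table of normalized log2 values served as an alternative.

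Intensities were background-corrected by normexp (offset 0), brought to the same quantiles on all 42 arrays and log2 transformed with limma 3.58.1 in R 4.3.3. Control spots were left out before normalization and irregular spots afterwards, which removed 1 spot of the 6 genes, S100b in diabetic muscle 2. Spots were averaged to probes and probes to genes. Genes entered a test when any probe exceeded background clearly on the 3 arrays of 1 or more sets compared. Group comparisons were fitted with lmFit and eBayes on 12 arrays with tissue as a term, the tissue contrast on all 42 arrays with a mean for each of the 14 sets, and a gene was called at a Benjamini-Hochberg adjusted p below 0.05 over all genes tested. P-values rest on 3 mice per set, and the number of arrays limits the precision. Aorta and muscle of a group may come from the same 3 mice, and the labels do not say which arrays share a mouse. Fits over both tissues count all arrays as independent, so their p-values may be too small. Arrays of a set correlated at 0.889 to 0.9943, and no array was a duplicate.

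Correlations were taken on deviations from group means with 100000 permutations within groups in scipy 1.17.1, all two-sided, and the smallest p they can give is 1e-05. Simulated data with 200 genes changed by 2 on the log2 scale were recovered at 91% to 100%, with 3.19% to 6.9% of the calls false. The changed genes were drawn at random from those tested. The recovery therefore does not hold for genes that spread as widely within groups as Th, Dbh, Npy and Chga in aorta. The alternatives varied the background correction, scaling, filter, probe choice, slide and replicate blocks, tissue and each array left out.

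The 6 genes and the 14 gene lists, 121 of whose 122 genes are on the array, were chosen with earlier results of these data known. Named were the 6 genes, the 3 list genes with the largest called tissue difference per list, every list gene called in a group comparison, up to 6 by size, the 3 genes most like each of the 6 in level, and the checks on the labels. Other genes of the lists named beside a correlation or a background mark were chosen after their values were seen. Results for 4 genes that this rule would name are not reported here.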

Additional observations from a re-analysis of the deposited data

How the results depend on the processing

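The tissue differences of Th, Dbh, Npy, Chga and S100b kept their direction and their call under every alternative that tested them, Th between 3.98 and 7.58 and Npy between 5.22 and 7.87. The stricter filter left 2 of the 6 genes called, since Th, Dbh, Npy and Chga were then not tested. Mbp reversed to -0.3072 (adjusted p = 0.171) with the brightest probe, and missed the threshold with the 75th percentile (0.305, adjusted p = 0.075) and without slides 1, 3 and 11 (0.3669, adjusted p = 0.0555).

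In A vs G the count of genes called was 1, and 0 in aorta alone and in muscle alone. With 1 array left out it ranged from 0 to 1, with S100b between 1.685 and 2.398 (adjusted p from 0.0102 to 0.0774). In C vs G the count was 1, and 0 with an offset of 50 (S100b 1.791, adjusted p = 0.0586), with the 75th percentile (1.759, 0.0536), with quantiles within tissue (1.772, 0.0514), with the authors' table (1.912, 0.0522), without the filter (1.848, 0.0599), with slide as a random block (1.751, 0.132), without slides 1, 3 and 11 (1.617, 0.0719), in aorta alone and in muscle alone. With 1 array left out it ranged from 0 to 1 (S100b 1.441 to 2.071, adjusted p from 0.0371 to 0.117). The cause was not tested. In E vs C the count was 0, and 1 in muscle alone.

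Without slides 1, 3 and 11, which leaves 1 healthy array per tissue whose spread is taken from the other groups, 1 interaction was called, Npy in A vs G (2.42 ± 0.50, adjusted p = 0.0448), against 0 in the main analysis, and E vs C and F vs C could not be fitted. There 3 pairs of genes were correlated, those among Th, Dbh and Npy, against 7, and 7 to 8 with 1 array left out. The tissue count stayed 6 and the interactions 0 with 1 array left out.

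Replicate numbers did not pair the samples: same-numbered arrays correlated between -0.484 and 0.602, and in 0 of 21 checks were all above 0.1. With the replicate number as a block S100b was 2.208 in A vs G (adjusted p = 0.0429) and 1.848 in C vs G (adjusted p = 0.0801), so that the count in C vs G became 0. With irregular spots kept, a choice made after seeing the data, S100b was 2.021 in A vs G (adjusted p = 0.0229).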
